A study of Mus musculus with 4 samples.

Results

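The genes described here are the 10 immediate-early transcription factor genes Fos, Fosb, Fosl1, Fosl2, Jun, Junb, Jund, Egr1, Egr2 and Egr3, out of 19505 genes that the array names. They were chosen by gene name and, like the gene lists below, with earlier results of these data known. Counts set beside the share over the whole array are thus descriptive only. The symbol in the array files identified 9 of the 10 genes, and Jund, which the files call Jund1, was matched through its RefSeq accession. They are covered by 13 probes at 40 spots on each array, with 1 probe for each of 7 genes and 2 probes each for Fosl2, Junb and Egr3. The cells were mouse embryo fibroblasts (MEFs), primary cultures grown from C57BL/6 embryos, in medium with serum. STMN1-/- MEFs lack stathmin, a protein that binds tubulin and destabilizes microtubules, through a neomycin cassette placed in the STMN1 gene in the germ line, and STMN1+/+ MEFs were the controls. Both RNAs were co-hybridised to 4 Agilent 2-color arrays that carry probes of 60 bases, with STMN1-/- RNA in Cy3 on arrays 1 and 2 and in Cy5 on arrays 3 and 4. Neither the labels nor the study's methods say which culture or RNA extract each array held, so every p-value below reflects how far the arrays differed from each other, and this spread may be only technical.

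Immediate-early genes are transcribed within minutes of a stimulus such as serum or a growth factor, without new protein synthesis, and most of their mRNAs are short-lived. Signals through the ERK, JNK and p38 MAP kinases reach the factors SRF, ELK and CREB, which sit ready on their promoters. FOS and JUN proteins pair through leucine zippers to form AP-1, which binds TGANTCA sites, while the EGR proteins are zinc-finger factors that bind GCGNGGGCG sites. In fibroblasts these factors take part in the response to serum, to wounding and to changes in adhesion.

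Of the 10 genes, Fosl1 and Jun were down-regulated in STMN1-/- MEFs, and Egr2 and Jund were up-regulated. Fosl1 was 1.70 fold lower and Jun 1.45 fold lower, while Egr2 was 1.78 fold higher and Jund 1.29 fold higher. No probe of Fos, Fosb, Fosl2, Junb, Egr1 or Egr3 passed the test. Thus 2 member probes were higher and 2 lower of 12 tested, or 33.3%, by limma at an adjusted p under 0.05, against 22.4% of all 27648 probes tested on the array, 11.2% in each direction. The sign was the same on every array for 7 of the 12 probes, and for 44.4% of all tested probes. Below, it is stated where the signals of the genotypes did not overlap. The share of all tested probes without such overlap was not counted, so this does not set the members apart. The median log2 ratio of STMN1-/- over STMN1+/+ was -0.04 over the 12 member probes and 0.00 over all tested probes, and the median absolute log2 ratio was 0.25 and 0.17. The ratios below are log2 of the processed signal of STMN1-/- over that of STMN1+/+ RNA, errors are standard errors (SE) from limma, and signals are compared only within a probe, apart from sums over a list of cell type markers.

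**Figure D1:**
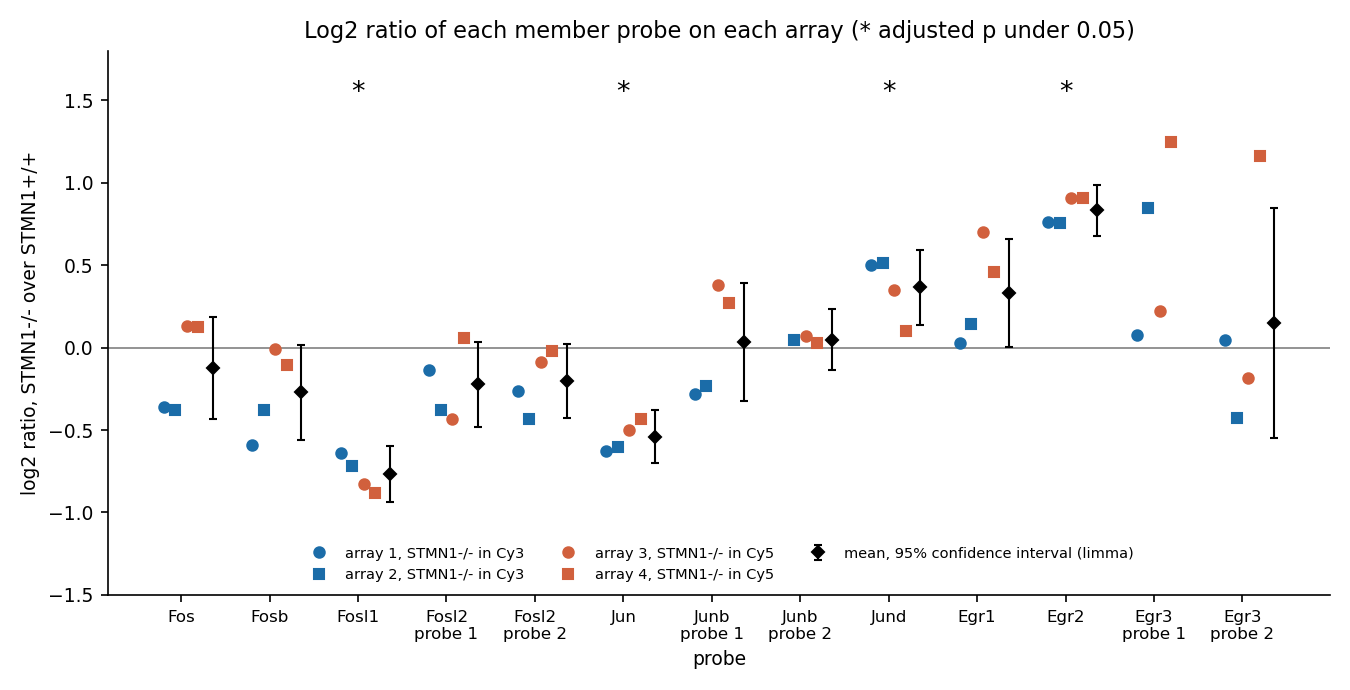
Log2 ratio of STMN1-/- over STMN1+/+ (vertical axis) for every member probe (horizontal axis), with 1 point per array coloured by the dye of the STMN1-/- RNA, and limma's mean with its 95% confidence interval in black for the 12 tested probes. Fosl1 and Jun lie below 0 and Jund and Egr2 above 0 on all 4 arrays, whereas the Cy3 and Cy5 points of Fos and Junb probe 1 lie on opposite sides of 0.

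Only the middle 30 bases (bases 16 to 45 of 60) of the probes for the 4 genes that passed the test are shown here, since these oligonucleotides carried the measured differences. Coordinates are those of the array files (mm7), on the strand given.
Fosl1 (chr19:5350317-5350346, plus strand): cataatttgcacaaaattagaggaaaatat
Jun (chr4:94441794-94441823, minus strand): aagatttagtaattagctgttgattctcaa
Jund (chr8:69154613-69154642, plus strand): acattcctgttccgtaatccttggttcgcc
Egr2 (chr10:67145391-67145420, plus strand): gtgagaatgtgcttcaatgtcactgccgct
No annotation of this build was used, so whether a probe lies in coding or untranslated sequence was not analysed here.

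In the Fos family, Fosl1, which encodes FRA1, the form of AP-1 subunit that accumulates in migrating and transformed cells, gave signals of 3608, 3813, 4293 and 4080 in STMN1-/- RNA on arrays 1 to 4 and of 5625, 6267, 7612 and 7517 in STMN1+/+ RNA. Every STMN1-/- signal lay below every STMN1+/+ signal. Its log2 ratios were -0.64, -0.72, -0.83 and -0.88, with a mean of -0.77 (SE 0.07, n = 4 arrays, limma adjusted p = 0.00274), a decrease of 1.70 fold (95% confidence interval 1.51 to 1.91). It passed the test in 14 of 14 alternative analyses, with log2 ratios from -0.81 to -0.62.

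Fos, the founding member, whose protein dimerises with JUN, was printed at 10 spots per array and gave signals of 902, 976, 1115 and 1181 in STMN1-/- RNA and of 1158, 1271, 1019 and 1083 in STMN1+/+ RNA. The order of the genotypes turned with the dye. The log2 ratios were -0.36 and -0.38 on the arrays with STMN1-/- RNA in Cy3 and 0.13 and 0.12 on those with it in Cy5. The mean was -0.12 (SE 0.12, limma adjusted p = 0.521), and its 95% interval ran from -0.43 to 0.19. On arrays 1 and 2, 0 of 19 usable Fos spots were higher in STMN1-/- RNA, and on arrays 3 and 4 it was 17 of 20. Repeat spots thus held the sign on arrays 1 and 2 and mostly on arrays 3 and 4, and the arrays differed by more (SD 0.29) than spots within an array (SD 0.12 to 0.16).

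Fosb, a close relative of Fos with a strong activation domain, gave signals of 396, 470, 292 and 444 in STMN1-/- RNA against 597, 610, 295 and 478 in STMN1+/+ RNA. The genotypes were 0.59 and 0.38 apart on the log2 scale on arrays 1 and 2, and nearly level on arrays 3 and 4 (log2 ratios -0.01 and -0.11). The mean of -0.27 (SE 0.11) did not pass the test (limma adjusted p = 0.153). It did so only with the dye as a second coefficient (adjusted p = 0.0291) and with arrays 1 and 3 and arrays 2 and 4 averaged in pairs (adjusted p = 0.0457), and normexp background correction with loess left -0.06.

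Fosl2, which encodes FRA2, was measured by a pair of probes. Probe 1 gave log2 ratios of -0.14, -0.38, -0.43 and 0.06 and a mean of -0.22 (SE 0.10, limma adjusted p = 0.182). Probe 2 gave -0.26, -0.43, -0.09 and -0.02 and a mean of -0.20 (SE 0.09, adjusted p = 0.165). The means lay within 0.02 of each other, although on array 3 the probes were 0.35 apart on the log2 scale. Probe 2 passed the test with the dye coefficient (adjusted p = 0.0409) and with normexp and loess (adjusted p = 0.0479), and probe 1 in 0 of 14 alternatives.

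In the Jun family, Jun, whose protein is the main partner of FOS in AP-1 and a substrate of JNK, had signals of 14104, 15302, 15060 and 17171 in STMN1-/- RNA and of 21785, 23219, 21258 and 23153 in STMN1+/+ RNA. No STMN1-/- signal reached the lowest STMN1+/+ signal. The log2 ratios were -0.63, -0.60, -0.50 and -0.43, with a mean of -0.54 (SE 0.06, n = 4, limma adjusted p = 0.00600), a decrease of 1.45 fold (interval 1.30 to 1.62). All 37 usable spots of the Jun probe, out of 10 printed per array, were lower in STMN1-/- RNA, at log2 ratios from -0.90 to -0.25. Jun passed in 14 of 14 alternatives, at log2 ratios from -0.58 to -0.51.

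Junb, a JUN relative that is often a weaker activator, was not called by either of its probes. Probe 1 gave log2 ratios of -0.28 and -0.23 on arrays 1 and 2 and of 0.38 and 0.27 on arrays 3 and 4, a mean of 0.03 (SE 0.14, limma adjusted p = 0.886). Probe 2, an outlier spot on array 1, gave 0.05, 0.07 and 0.03 on arrays 2 to 4, a mean of 0.05 (SE 0.07, n = 3, adjusted p = 0.649). Only probe 1 changed sign with the dye, although array 1 is missing for probe 2. The probes are neighbours on the same strand, and the end of probe 2 and the start of probe 1 share 22 bases, shown here because the dye difference was 0.58 for probe 1 and 0.00 for probe 2.
Junb overlap (chr8:83563097-83563118, minus strand, mm7): ttcgtgtctaaagtctatttta

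Jund, the JUN relative that resting fibroblasts make most steadily and that can slow their growth, had signals of 150436, 163542, 140481 and 140329 in STMN1-/- RNA and of 106297, 114834, 110407 and 130949 in STMN1+/+ RNA. The signals of the genotypes did not overlap, but they came closest on array 4. The log2 ratios were 0.50, 0.51, 0.35 and 0.10, with a mean of 0.36 (SE 0.09, limma adjusted p = 0.0437), an increase of 1.29 fold (interval 1.10 to 1.51). This call was the least firm of the 4 and held in 8 of 14 alternatives. It was lost without array 1 (adjusted p = 0.133), without array 2 (adjusted p = 0.142) and without array 3 (adjusted p = 0.122), but not without array 4 (adjusted p = 0.0440), and also with normexp and loess (adjusted p = 0.125), with no filter on dim probes (adjusted p = 0.0909) and by the methods' t-test (adjusted p = 0.116).

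Among the EGR genes, Egr2, which encodes KROX20, a factor known for hindbrain segmentation and for myelination by Schwann cells, had signals of 3703, 3872, 4112 and 4168 in STMN1-/- RNA and of 2181, 2293, 2191 and 2223 in STMN1+/+ RNA. The genotypes were well apart, with the lowest STMN1-/- signal above the highest STMN1+/+ signal. The log2 ratios were 0.76, 0.76, 0.91 and 0.91, with a mean of 0.83 (SE 0.06, n = 4, limma adjusted p = 0.00188), an increase of 1.78 fold (interval 1.60 to 1.98). All 40 Egr2 spots were higher in STMN1-/- RNA, at log2 ratios from 0.64 to 1.06. It passed in 14 of 14 alternatives, and the smallest of those ratios was 0.55, with normexp and loess (adjusted p = 0.0412).

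Egr1, the most widely studied EGR factor and a classic serum response gene, gave signals of 9555, 11151, 11120 and 12336 in STMN1-/- RNA and of 9387, 10083, 6836 and 8991 in STMN1+/+ RNA. On each array the STMN1-/- signal was the higher one, although the ranges of the genotypes overlapped. The log2 ratios were 0.03 and 0.15 with STMN1-/- RNA in Cy3 and 0.70 and 0.46 with it in Cy5, with a mean of 0.33 (SE 0.13), which did not pass over all probes (limma adjusted p = 0.130). Egr1 passed in 2 of 14 alternatives, with the dye as a second coefficient (adjusted p = 0.0236) and with arrays 1 and 3 and arrays 2 and 4 averaged (adjusted p = 0.0368), but not with arrays 1 and 4 and arrays 2 and 3 averaged (adjusted p = 0.0605). Its log2 ratios over the 14 ran from 0.21 to 0.43.

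Egr3, a relative known from muscle spindles and lymphocytes, was at the limit of detection. Probe 1 was well above background on 0 arrays in either genotype and was not tested, with signals of 38.4 to 80.7 in STMN1-/- RNA and 21.4 to 47.4 in STMN1+/+ RNA. Probe 2 was well above background in STMN1-/- RNA on 1 array and in STMN1+/+ RNA on 0 arrays. It gave log2 ratios of 0.04, -0.43, -0.19 and 1.16 (limma adjusted p = 0.739). No fold change is given for Egr3.

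**Figure D2:**
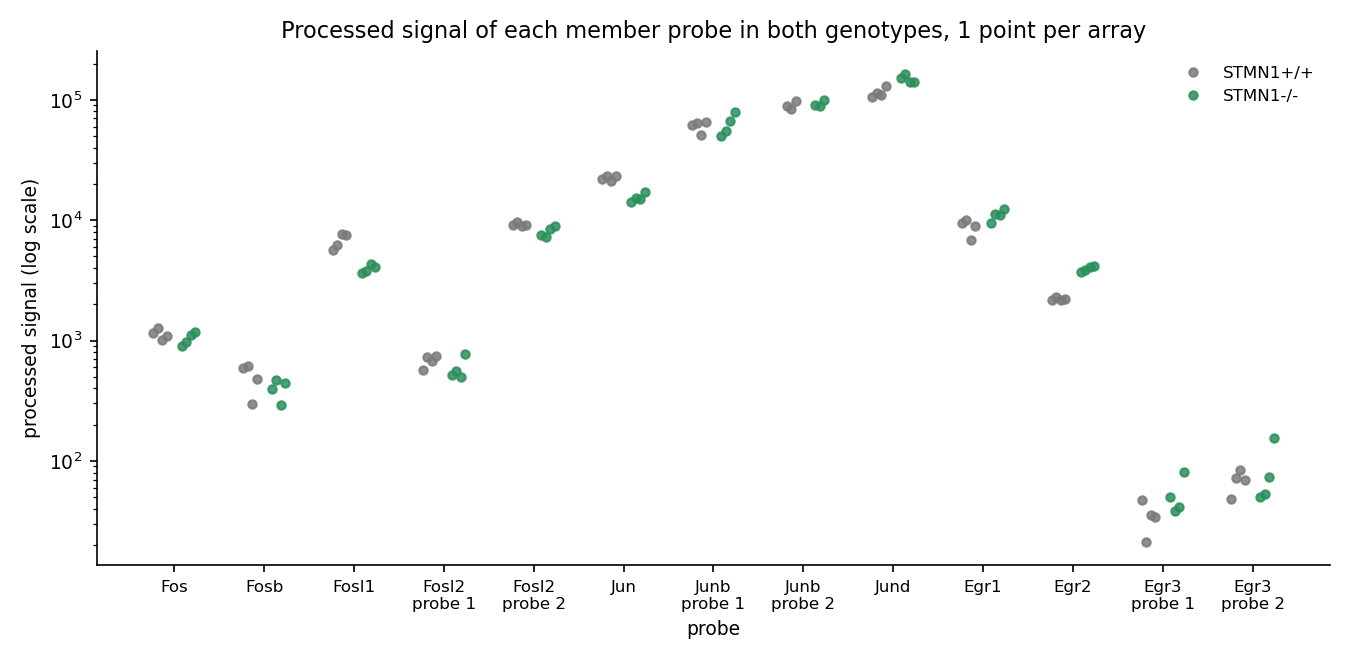
Processed signal (vertical axis, log scale) of every member probe (horizontal axis) in STMN1+/+ RNA (grey) and STMN1-/- RNA (green), with 1 point per array in the order 1 to 4. The points of the genotypes do not overlap for Fosl1, Jun, Jund and Egr2, although the share of all tested probes without overlap was not counted. The Egr3 probes lie near background, and heights are not comparable between probes.

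For several members the ratio depended on the dye. The log2 ratio with STMN1-/- RNA in Cy5 exceeded that in Cy3 by 0.50 for Fos, 0.49 for Egr1, 0.43 for Fosb and 0.58 for Junb probe 1. Over all tested probes, the absolute dye difference had a median of 0.21, and those of Fos, Egr1, Fosb and Junb probe 1 stood at percentiles 83.5, 83.3, 78.4 and 88.0 of it. For the genes that passed, the dye difference was 0.15 for Jun, 0.15 for Egr2, -0.18 for Fosl1 and -0.28 for Jund. The main fit held no dye term, so a large dye difference raised the SE and made a call less likely. Smaller dye differences among called genes therefore follow in part from how they were picked. The mean over 4 arrays balances the dyes, whereas a mean over 3 does not.

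**Figure D3:**
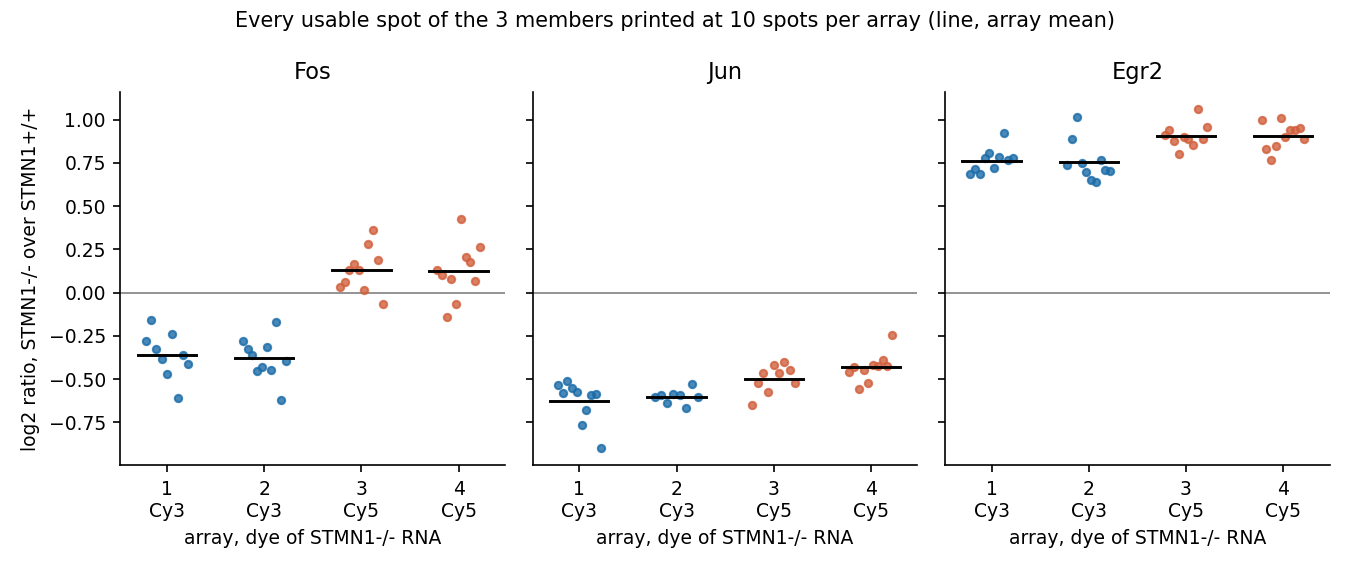
Log2 ratio of STMN1-/- over STMN1+/+ (vertical axis) of each usable spot of Fos, Jun and Egr2 on arrays 1 to 4 (horizontal axis, with the dye of the STMN1-/- RNA), with a line at each array's mean. All 37 Jun spots lie below 0 and all 40 Egr2 spots above 0, whereas Fos spots lie below 0 on arrays 1 and 2 and mostly above 0 on arrays 3 and 4.

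Known regulatory motifs were looked up in the promoters of the members, since they are the sites through which the upstream factors act. RefSeq windows (GRCm38.p6) of the 250 bases before the start were used for 7 members, Fos, Fosb, Fosl2, Jun, Junb, Jund and Egr2, the last with 5 alternative starts. Motifs were searched on both strands. Shown are the 30 bases around a match in Fos, which did not pass the test, and in Jun and Egr2, which passed in opposite directions, with the match in capitals.
Fos (chr12:85473812-85473841, plus strand), TGACGT, the core of a CREB site: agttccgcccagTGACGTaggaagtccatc
Jun (chr4:95052249-95052278, minus strand), TGACATCA, an AP-1 and ATF site: aagcctcggggTGACATCAtgggctatttt
Egr2 (chr10:67537787-67537816, plus strand), a CArG box, the site of SRF: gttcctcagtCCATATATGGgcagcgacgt
Of 32851 promoter windows of this length, 6.47% held TGACGT, 2.93% held TGACATCA and 1.47% held a CArG box. The same Egr2 window also held TGACGT on the other strand, downstream of the CArG box match. GCGNGGGCG, the EGR site, lay in the windows of Fosb and Fosl2 and in 4.7% of all windows. TGACGCAA lay in that of Fosb and in 0.438% of all, while TGANTCA (6.75% of all) and the full CREB site TGACGTCA (1.55%), which contains TGACGT, matched in 0 of the 7. The windows of Junb, which did not pass the test, and Jund, which did, matched none of these motifs. The shares are per window, whereas Egr2 had 5 windows and so more room for a match. Sites more than 250 bases before a start were not searched. A match is a description of the letters, and binding was not measured.

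Of 8 tested genes for SRF, its cofactors, the ternary complex factors and CREB, 0 were higher and 1 was lower, and the median log2 ratio was -0.18, against 25.8% of 14979 named genes called in either direction, each by its brightest probe. The lower gene was Mrtfa, an actin-regulated cofactor of SRF (log2 ratio -0.36, SE 0.07, limma adjusted p = 0.0189), whose other probe was at -0.09 and was not called. Mrtfa kept its call without array 2 (adjusted p = 0.0411) and lost it without array 1 (0.0743), array 3 (0.0782) or array 4 (0.0796). Srf itself was at -0.04 (SE 0.11) and Elk3 at -0.04 (SE 0.08), and neither was called. Elk4 was not called by its brightest probe (-0.16, SE 0.13). Of its other probes, 1 was lower (-0.82, SE 0.18, limma adjusted p = 0.0315) and 1 was not called (-0.22, SE 0.12). Of 24 MAPK cascade genes, 3 were higher and 4 lower (median -0.03), or 0 and 2 with 1 array left out, whichever it was. Over all tested probes, calls also fell with 1 array left out. Without array 1, 1649 probes were higher and 1537 lower, against 3098 and 3086 with all 4 arrays. The lower genes included Map2k3, a kinase of p38 (log2 ratio -0.45, SE 0.06, limma adjusted p = 0.00770), and Rps6ka5, which encodes the histone kinase MSK1 (log2 ratio -0.68, SE 0.08, adjusted p = 0.00644), although Rps6ka5 was at -0.15 and uncalled with normexp and loess.

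Of 16 tested feedback inhibitors of the MAP kinases, 7 were lower and 2 higher, with a median log2 ratio of -0.29, against 12.3% of named genes lower and 13.4% higher. The phosphatase genes Dusp10 (log2 ratio -0.995, SE 0.12, 1.99 fold), Dusp1 (-0.84, SE 0.10, 1.79 fold), Dusp14 (-0.73, SE 0.10, 1.66 fold) and Dusp6 (-0.67, SE 0.06, 1.59 fold) were down-regulated, with limma adjusted p-values of 0.00717, 0.00706, 0.00808 and 0.00285. Dusp1 removes phosphate from JNK and p38 and is itself an immediate-early gene, while Dusp6 acts on ERK. Each of these 4 kept its call with any 1 array left out, although the other Dusp14 probe, at -0.42, was not called. Spry2, another inhibitor, was at -0.39 (SE 0.11) and was not called (adjusted p = 0.0605), and its other probe was at -0.04 (SE 0.06) and not called. With 1 array left out, 5 or 6 inhibitors were lower and 0 higher.

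Of 42 other immediate-early genes tested, 14 were lower and 4 higher, against 12.3% of named genes lower and 13.4% higher. The median log2 ratio was -0.21. With 1 array left out, 10 or 11 of these genes were lower and 1 or 2 higher. Ptgs2, the inducible cyclooxygenase, was 2.28 fold lower (log2 ratio -1.19, SE 0.05, limma adjusted p = 0.000800), and the zinc-finger gene Klf10 1.94 fold lower (-0.95, SE 0.06, adjusted p = 0.00129). The ligand gene Areg was well above background on 4 arrays in STMN1+/+ RNA and on 0 in STMN1-/- RNA, so it passed the filter on dim probes only through STMN1+/+ RNA. Areg was called lower, with mean signals of 278 and 113, which were 2.47 fold apart. Its log2 ratios ran from -1.76 to -0.91 over the arrays. With normexp and loess it was at a log2 ratio of -0.19 and uncalled. With a filter for signals well above background in both channels on all arrays, which leaves Areg out, the list still had 14 genes lower and 4 higher. Klf2 (0.31, SE 0.20) and Ccn1 (-0.23, SE 0.17), the brightest uncalled genes, gave adjusted p-values of 0.314 and 0.382, and the other Klf2 probe was at -0.50.

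Of 16 tested genes for other leucine zipper proteins, most of which can pair with FOS or JUN proteins, 5 were higher and 2 lower. The shares over all named genes were 13.4% higher and 12.3% lower. The list's median log2 ratio was 0.14. With 1 array left out, 3 or 4 of its genes were higher and 1 or 2 lower. Jdp2, which encodes a repressor that dimerises with JUN, was 1.49 fold higher (log2 ratio 0.57, SE 0.05, limma adjusted p = 0.00342). Maff was 1.46 fold lower (-0.54, SE 0.06, adjusted p = 0.00555). Bach1 was at 0.59 over 3 arrays (SE 0.10, adjusted p = 0.0237), a call that was lost without array 2 or array 3 (adjusted p = 0.104 each), with normexp and loess (log2 ratio 0.35), with outlier spots kept (0.33), with no filter on dim probes and by the methods' t-test. Atf4 (0.37, SE 0.10, adjusted p = 0.0576) and Nfe2l2 (-0.03, SE 0.06) were not called.

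Of 24 tested known targets of AP-1, 13 were lower and 6 higher, against 12.3% of named genes lower and 13.4% higher. The median log2 ratio was -0.30. With 1 array left out, 7 or 8 targets were lower and 5 higher. Il11, a cytokine gene, was 2.01 fold lower (log2 ratio -1.004, SE 0.06, limma adjusted p = 0.00104), and Ezr, which encodes the membrane linker ezrin, 1.92 fold lower (-0.94, SE 0.06, adjusted p = 0.00156). Plau, the urokinase gene, was 1.90 fold lower (-0.93, SE 0.14, adjusted p = 0.0123), with an adjusted p of 0.0501 without array 2 and of 0.0683 by the methods' t-test, and a log2 ratio of -0.44 (adjusted p = 0.0591) with normexp and loess. Mmp9, a gelatinase gene, was 1.75 fold higher (0.81, SE 0.06, adjusted p = 0.00172), or 0.43 with normexp and loess (adjusted p = 0.0618). Vegfa (0.45, SE 0.12) and Lox (-0.04, SE 0.13, n = 3) were not called by their brightest probes, although the other Vegfa probes, at 0.39 and 0.36, were.

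Of the EGR corepressors, which bind EGR proteins and are themselves EGR targets, Nab2 was 1.21 fold higher (log2 ratio 0.28, SE 0.06, limma adjusted p = 0.0275), a call lost whichever array was left out (adjusted p from 0.0752 to 0.106), with normexp and loess (0.0505) and with no filter on dim probes (0.0739). Nab1 was at 0.12 (SE 0.13, n = 3) and not called. Of 20 tested EGR targets, 6 were higher and 4 lower, against 13.4% of named genes higher and 12.3% lower. Their median log2 ratio was 0.15. The receptor gene Flt1 was 1.98 fold higher (0.98, SE 0.10, adjusted p = 0.00373) and Fn1, encoding fibronectin, 1.76 fold higher (0.82, SE 0.11, adjusted p = 0.00979, or 0.0554 by the methods' t-test). Mbp, a myelin gene and a target of EGR2 in Schwann cells, was 2.29 fold lower (-1.20, SE 0.14, adjusted p = 0.00600), and Pdgfb 1.76 fold lower (-0.82, SE 0.10, adjusted p = 0.00620), or -0.17 and uncalled with normexp and loess. The other Pdgfb probe, at -0.38 (SE 0.11), was not called (limma adjusted p = 0.0605). Sod1 and Igf2, at -0.09 (SE 0.08) and 0.17 (SE 0.08), were not called. Some genes, such as Fn1 and Vegfa, stand in more than 1 list, so the counts are not independent.

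**Figure D4:**
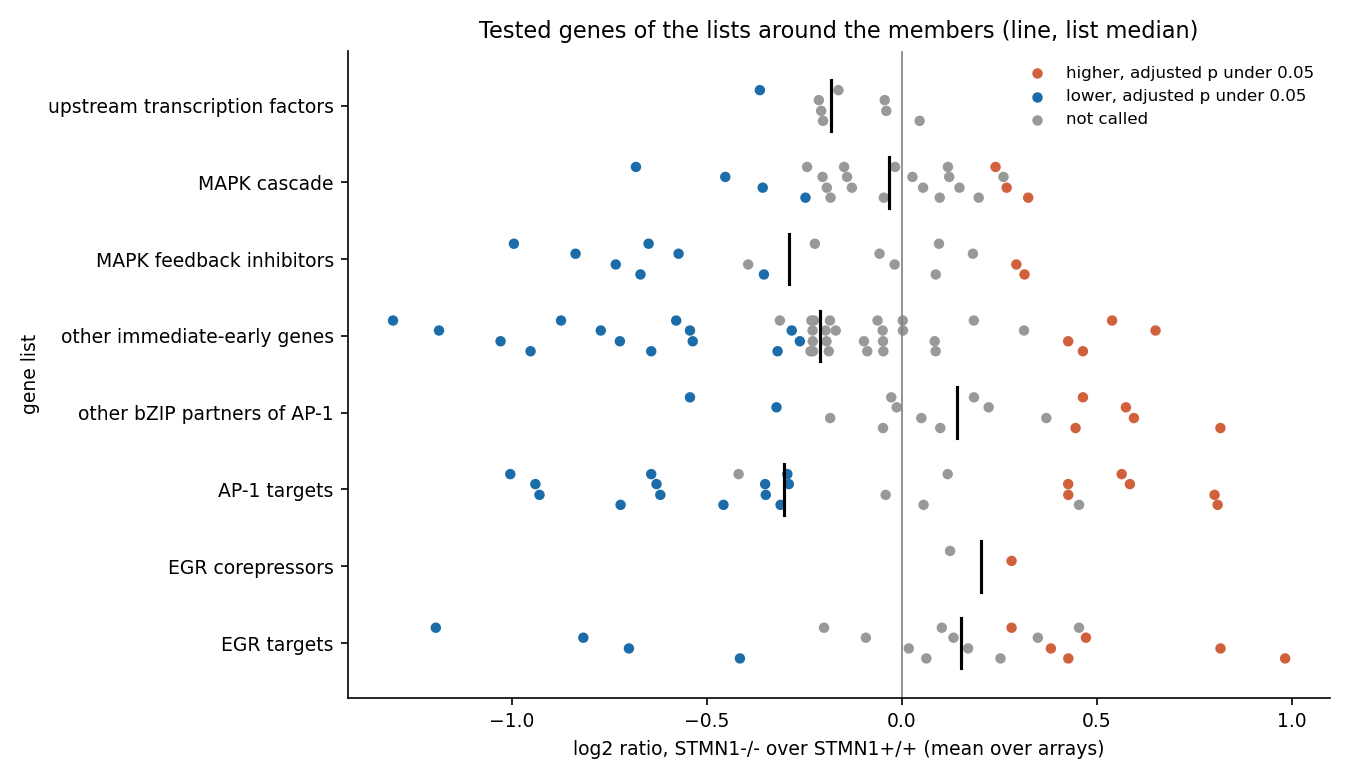
Mean log2 ratio of STMN1-/- over STMN1+/+ (horizontal axis) of each tested gene in the 8 lists around the members (vertical axis), each gene by its brightest probe, coloured by limma's call, with a black line at each list's median. Medians lie at -0.29 for the MAPK feedback inhibitors, -0.21 for other immediate-early genes and -0.30 for AP-1 targets, and at 0.14 for the bZIP partners and 0.15 for EGR targets.

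Fibroblast and epithelial markers, and in part neural and glial ones, moved with the genotype, and their part in the results above was not tested. Their counts stand against the 25.8% of named genes called in either direction. In a bulk RNA sample, fewer cells of a type and less RNA per cell cannot be told apart. All 11 fibroblast markers were measured, 9 of them higher in STMN1-/- MEFs and 1 lower (8 and 0 with 1 array left out). Their summed signals of 4362490 to 6788840 in STMN1-/- RNA and 3992210 to 4608570 in STMN1+/+ RNA overlapped. Col1a1 was 2.43 fold higher (log2 ratio 1.28, SE 0.06). S100a4, a bright marker, was not called (mean signals 1342200 and 2050400). Its log2 ratios were -1.54 and -1.38 on arrays 1 and 2 and 0.08 and 0.38 on arrays 3 and 4. All 6 tested epithelial markers were lower (4 with 1 array left out and 4 with normexp and loess), with summed signals of 54508 to 63858 against 81991 to 92540. Epcam was dim in both genotypes. Cdh1 had mean signals of 447 in STMN1+/+ RNA and 42 in STMN1-/- RNA, which were 10.6 fold apart. It was well above background on 0 arrays in STMN1-/- RNA and passed the filter on dim probes only through STMN1+/+ RNA. With normexp and loess Cdh1 was at -0.57 and uncalled. Of 10 tested neural and glial markers, 6 were lower and 2 higher, or 6 and 0 with 1 array left out and 2 and 2 with normexp and loess. The summed signals of 132687 to 163910 and 131681 to 144142 overlapped. Sox2, counted among the lower ones, was well above background on 4 arrays in STMN1+/+ RNA and on 0 in STMN1-/- RNA. It thus passed the filter on dim probes only through STMN1+/+ RNA (mean signals 459 and 126), and was uncalled with normexp and loess. Sox10, a factor that Egr2 is known with in Schwann cells, was 1.83 fold lower (-0.88, SE 0.09), or -0.49 and uncalled with normexp and loess. Macrophage markers numbered 1 higher and 1 lower of 5, and 0 and 0 with 1 array left out. Their summed signals were 124615 to 145748 against 148766 to 170427, most of it from Lyz2, which was not called by its brighter probe (mean signals 129200 and 151406). The other Lyz2 probe was lower (log2 ratio -0.44, SE 0.05, limma adjusted p = 0.00653). Endothelial markers numbered 0 higher and 1 lower of 2 (1148 to 1370 against 1673 to 2015, with Pecam1, Cdh5 and Tie1 not well above background), or 0 lower with normexp and loess. The lower one was Kdr by its brighter probe (log2 ratio -0.72, SE 0.06), while its other probe was at 0.20 (SE 0.10) and not called. Muscle markers numbered 2 higher and 0 lower of 6 (61340 to 84224 against 56685 to 74775), or 1 or 2 higher with 1 array left out.

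The arrays themselves were alike in depth, with median processed signals of 1639 to 1798 in both genotypes, 24808 to 26029 probes well above background per channel and 0 saturated member spots. Their log2 ratios correlated across probes, which are not independent replicates, at r = 0.688 and r = 0.702 where the dyes ran the same way and at r = 0.445 to r = 0.488 where they ran opposite ways. Stmn1, the targeted gene, was 4.46 fold lower by one probe (log2 ratio -2.16, SE 0.06, limma adjusted p = 0.000602) and 1.31 fold lower by the other (-0.39, SE 0.07, adjusted p = 0.0181). The mean signal of the latter was 170220 in STMN1-/- and 223762 in STMN1+/+ RNA. It passed in 10 of 14 alternatives and only without array 4 among the fits with 1 array left out (adjusted p from 0.0444 to 0.0776). The study states that an Stmn1 probe of this array also matches sequence elsewhere in the genome. It also states that qRT-PCR and western blotting found no STMN1 mRNA or protein in STMN1-/- MEFs. Whether either probe lies outside the disrupted part was not analysed here.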

How the data were processed

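RNA of both genotypes was measured on 4 dye-swapped arrays. The processed intensity columns were deposited as written by the authors' scanner software (Agilent Feature Extraction 9.5.3.1), which per the file headers subtracted background, normalized dyes by LOWESS and filled in a surrogate for dim spots. The deposited log10 column, the ratio of Cy5 over Cy3 by the authors, served as an alternative. The authors' lists of selected probes, with their own fold changes, were not used.

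Log2 of the STMN1-/- signal minus log2 of the STMN1+/+ signal was taken per spot, with dyes from the labels. Outlier spots were dropped, spots of a probe averaged, and a probe was tested if 1 or more arrays measured it well above background in a channel and 2 or more gave a value (27648 of 41174). The mean ratio was compared with 0 by limma 3.58.1 (R 4.3.3, two-sided, Benjamini-Hochberg over all these probes, threshold 0.05). Files were read with jsonlite 2.0.0 and the data.table package (version 1.17.8), and Python 3.11.15, pandas 2.3.3, numpy 2.4.6 and matplotlib 3.10.9 drew the figures. The procedure was also run on simulated ratios with known changes. These had independent noise on each array and no dye effect, so the run cannot show how the fit fares with the dye differences seen here. A listed gene stood by its brightest probe. Up to 4 called genes with the largest ratios and up to 2 of the brightest uncalled genes of each list could be named, besides the members and Stmn1. Some genes that this rule would name are not reported here. Where a listed gene had 0 arrays well above background in 1 genotype, the fold given is the ratio of its mean signals. The dim mean was then not well above background. The members and lists were chosen with earlier results of these data known. All 4 arrays share 1 slide and 1 scan, so no batch could be fitted. Alternatives were normexp (offset 50) with loess, the log10 column, median centring, other filters, outliers kept, the dye coefficient, averaged dye-swap pairs, the methods' t-test, the median over a gene's probes, and each array left out.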

Additional observations from a re-analysis of the deposited data

How the results depend on the processing

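With normexp and loess, 991 probes were higher and 1148 lower, 1 member probe was higher and 38 listed genes were lower (main values 3098, 3086, 2 and 58). With no filter on dim probes, 1970 probes were higher and 1871 lower, with 1 member probe and 24 listed genes higher (main value 37), and by the methods' t-test 1975 and 1882, with 1 member probe higher. With the dye as a second coefficient, 5356 were higher and 5346 lower, with 4 member probes lower. Leaving out each array in turn left 1460 to 1649 probes higher and 1348 to 1537 lower, 1 to 2 member probes higher and 2 lower, and 20 to 23 listed genes higher and 37 to 41 lower. Fosl1, Jun and Egr2 kept their calls in each of 14 alternatives and Jund in 8. Both genotypes lie on each array, so each ratio already pairs them. Averaging arrays of opposite dye gave 3556 probes higher and 3459 lower (1 with 3, 2 with 4) or 3787 and 3705 (1 with 4, 2 with 3), with 3 and 3 or 2 and 2 member probes. Fewer arrays carry less power and an unbalanced dye, and the low signal of Egr3 limits what these arrays can show of it.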
